A study of Homo sapiens with 2 samples.

Results

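The 34 genes described here are listed imprinted genes, chosen by name and mapped to 34 of the 62700 genes measured in TCam-2 cells. TCam-2 is an established human line derived from a seminoma, a germ cell tumour of the testis. By the parental allele from which each is normally expressed, 21 of the genes are paternal, 8 are maternal and 5 depend on the isoform or tissue. Both libraries came from cells carrying a DDX53-FLAG construct, which overexpresses the RNA helicase DDX53 of the DEAD-box family, and they form 1 group of 2 replicates. The promoter of the construct and whether the transduced cells are clonal are not given in the sources used here. Cells transduced with a GFP-FLAG construct and untransduced cells are named in the design as controls, were not analysed here, and no effect of DDX53 was computed. Nothing in the labels says that the replicates are separate cultures, so the spread between them may be technical.

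Polyadenylated RNA was sequenced, and the reads that fell in genes numbered 24137664 for replicate 1 and 22198929 for replicate 2. A gene with no read could still hold up to 3 reads, which is 0.124 CPM (counts-per-million of the reads in genes) in replicate 1 and 0.135 CPM in replicate 2, and this limit covers counting error only. DDX53 itself had 146 and 147 reads, or 6.05 and 6.62 CPM. Of the seminoma markers, 10 of 10 were detected, led by POU5F1 at 1891 and 1921 CPM. Of the markers of later germ cells, 0 of 4 were detected, and DAZL had no read. Embryonal carcinoma markers were detected in 3 of 4 cases. TDGF1 was at 127 and 120 CPM, DNMT3B at 124 and 98.4 CPM, GDF3 at 7.46 and 6.40 CPM, and SOX2 at 0.994 and 1.08 CPM. Markers of testis somatic cells were detected in 3 of 6 cases. GATA4 was at 39.8 and 38.5 CPM, SOX9 at 7.79 and 4.68 CPM and AMH at 6.01 and 5.81 CPM. WT1, STAR and INSL3 were below 1 CPM. Markers of trophoblast or yolk sac were detected in 2 of 4 cases. CGA was at 8.53 and 12.03 CPM and GATA3 at 9.860 and 9.595 CPM. HNF4A was below 1 CPM and AFP had 0 reads. Since RNA was taken from whole cultures, fewer expressing cells and less RNA per cell cannot be told apart.

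Imprinted genes are transcribed mainly from the chromosome inherited from a given parent, because DNA methylation laid down in the egg or the sperm marks a control region near them. Many lie in clusters in which a long noncoding RNA and protein-coding genes are expressed from opposite parental chromosomes, and many act on foetal growth, the placenta or the brain. In primordial germ cells, the embryonic cells that seminoma resembles, these marks are erased before new ones are set according to the sex of the embryo. The deposited files hold no allele-specific reads, so what follows is the level of each gene and not the parental chromosome it came from.

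At a threshold of 1 CPM in both libraries, 24 of the 34 imprinted genes were detected, against a background of 21.7% of all 62700 genes, 61.7% of the 19831 protein-coding genes, and 6.06% of the 13576 long noncoding genes (lincRNA, antisense and processed transcript classes). By normal parental allele, 13 of 21 paternal genes, 6 of 8 maternal genes and 5 of 5 dependent genes passed. No read fell in 5 members, IGF2, MEG3, MEG8, NNAT and SNURF. The 5 other undetected members had between 1 and 17 reads in at least 1 library: ZIM2, RTL1, DIRAS3, MAGEL2 and SNRPN. Levels between genes are compared per length, as transcripts-per-million (TPM) summed over the transcripts of a gene. By TPM, 22 members reached 1 in both libraries. SNRPN passed by TPM only, and KCNQ1OT1, KCNQ1 and GNAS-AS1 passed by CPM only. The 22 had a median of 21.0 TPM, beside 14.1 TPM for all genes that passed the same threshold and 16.1 TPM for the protein-coding genes among them.

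**Figure D1:**
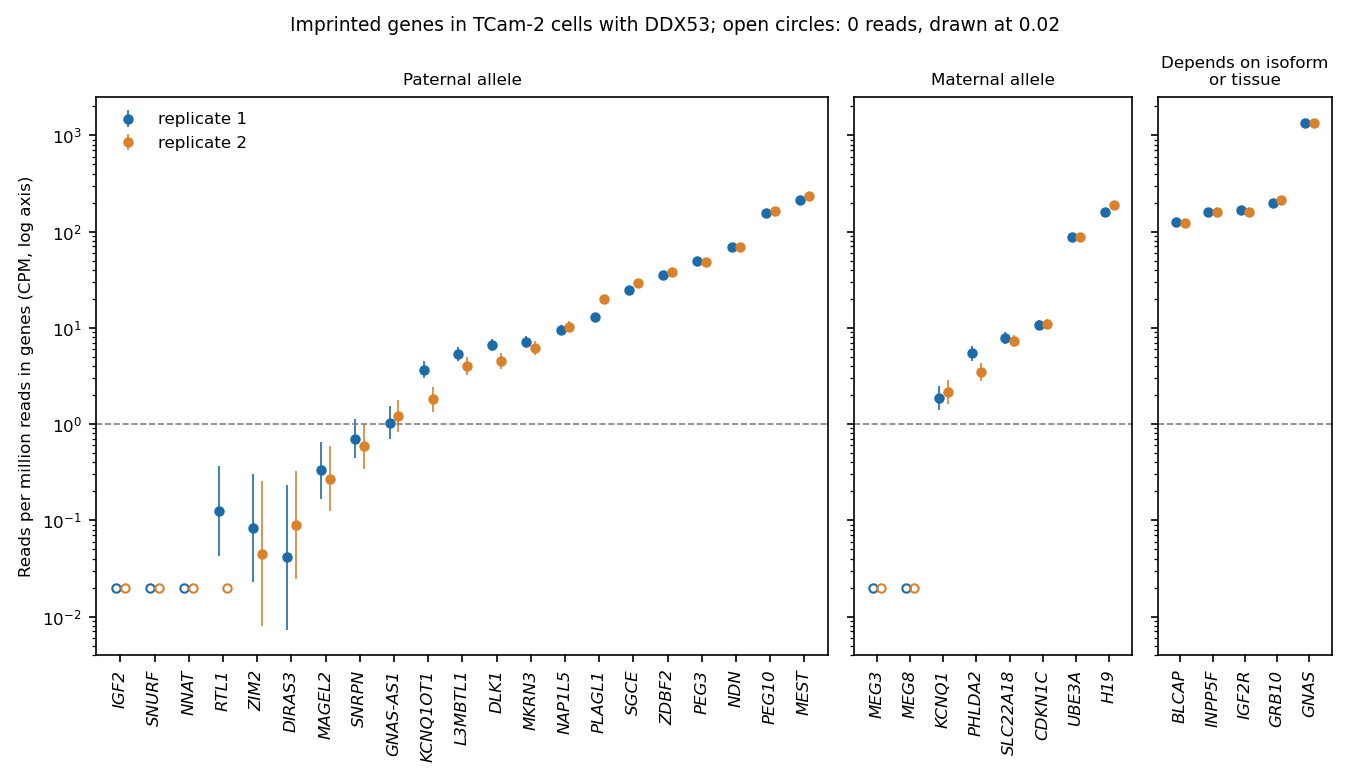
Reads of each of the 34 imprinted genes in CPM (vertical axis, log scale, not corrected for length) in each library, with 95% Wilson intervals, grouped by the parental allele normally expressed; open circles are genes without a read and the dashed line is 1 CPM. The libraries lie close together for most genes above the line, and IGF2, SNURF, NNAT, MEG3 and MEG8 have no read in either.

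In the cluster at the end of the short arm of chromosome 11, H19 was abundant while IGF2 had no read. H19 (ENSG00000130600, chr11:1995176-2001470, minus strand) is a maternally expressed noncoding RNA, and IGF2 (ENSG00000167244, chr11:2129112-2149603, minus strand) is the paternally expressed foetal growth factor that competes with it for shared enhancers. H19 had 3824 reads in replicate 1 and 4155 in replicate 2, which is 158 CPM (95% Wilson interval 153 to 164) and 187 CPM (182 to 193), or 173 ± 20.3 CPM (SD, n = 2). Its intervals did not overlap between the libraries. In TPM, H19 stood at 255 and 284, above 96.0% of the genes at 1 TPM or more. Its reads were fewer than its TPM and transcript lengths predict, with a log2 ratio of -1.31 in replicate 1 and -1.22 in replicate 2. The gene and transcript tables thus differ for H19.

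IGF2 had 0 reads and 0 TPM in both libraries. Of its exonic length, 73.7% is shared on the same strand with overlapping gene entries. These entries, INS-IGF2, the other IGF2 identifier and AC132217.1, also had 0 reads and 0 TPM in both libraries. Per kilobase of merged exons (2897 bases in H19 and 6979 in IGF2), H19 was at least 3071-fold higher than IGF2 in replicate 1 and at least 3337-fold higher in replicate 2, with IGF2 set at the limit of 3 reads per library. IGF2R (chr6:159969099-160113507, plus strand), the receptor that takes up and clears IGF2, had 4054 and 3507 reads, or 168 and 158 CPM, and stood at 18.2 and 18.9 TPM. RNA of the receptor gene was thus present in both libraries, in which RNA of the ligand gene was not detectable at this depth.

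In the neighbouring cluster on chromosome 11, organised around the noncoding RNA KCNQ1OT1, the growth-limiting genes were present at low to middling levels. CDKN1C, which encodes the cyclin-dependent kinase inhibitor p57, had 259 and 243 reads, or 13.9 and 14.1 TPM. PHLDA2, a pleckstrin-homology protein that limits placental growth, had 131 and 77 reads, or 11.4 and 7.80 TPM, and was the less steady of the pair. SLC22A18, a transporter-like membrane protein gene, stood at 8.87 and 7.85 TPM.

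KCNQ1, which encodes a potassium channel subunit, had 45 and 48 reads and 0.858 and 1.07 TPM. CDKN1C was thus 16.2-fold and 13.2-fold above KCNQ1 in TPM, and 10.3-fold and 9.09-fold by CPM per kilobase of merged exons. KCNQ1OT1, the paternally expressed antisense RNA that lies inside KCNQ1, had 89 and 40 reads, or 3.69 and 1.80 CPM. Spread over its annotated length of 91667 bases this came to 0.047 and 0.020 TPM. CDKN1C stood 294-fold and 697-fold higher in TPM, and 108-fold and 225-fold higher by CPM per kilobase. Whether the authors counted by strand is not given in the sources used here, so reads of KCNQ1OT1 and unspliced reads of KCNQ1 cannot be told apart.

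On chromosome 14 the paternally expressed DLK1 was present at a low level and the maternally expressed noncoding RNAs were not detectable. DLK1 encodes a membrane protein related to Notch ligands. It had 160 and 100 reads, or 4.67 and 3.10 TPM. MEG3 (chr14:100779410-100861031, plus strand) and MEG8 had 0 reads and 0 TPM in both libraries, and RTL1, a retrotransposon-derived gene of the same cluster, had 3 reads and 0 reads. No fold against MEG3 is given, since the merged exons of its 47 transcripts span 23224 bases and a limit per kilobase would rest on that length. Against RTL1 the ratio of DLK1 per kilobase of merged exons was 54.2 in replicate 1, with a counting interval of 18.3 to 161, and at least 33.9-fold in replicate 2. DIO3, a deiodinase gene at the far end of the cluster, had 2.98 and 3.15 CPM, whereas MEG9 had no read. A start of MEG3 is shown because this gene had no read. The 250 bases before it hold 13 CG dinucleotides, beside a median of 11 over the 35116 promoters of the RefSeq table (GRCh38.p14). The stretch is chr14:100825858-100826097 on the plus strand, before chr14:100826108, the most upstream RefSeq start listed for the gene. That start is internal only to the longer annotated span given above. The stretch is cut at the nearest annotated exon, and capitals mark CG.
MEG3: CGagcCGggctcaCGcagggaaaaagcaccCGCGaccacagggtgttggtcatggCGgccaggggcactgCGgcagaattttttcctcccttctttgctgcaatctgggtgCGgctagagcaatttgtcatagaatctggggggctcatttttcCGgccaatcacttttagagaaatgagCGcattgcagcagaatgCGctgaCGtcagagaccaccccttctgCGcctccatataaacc

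In the Prader-Willi and Angelman region of chromosome 15, NDN and UBE3A were abundant, MKRN3 was low and MAGEL2 was below the threshold. NDN and MAGEL2 are neighbouring single-exon genes of the MAGE family, both paternally expressed. NDN (chr15:23685400-23687330, minus strand) had 1681 and 1533 reads, or 69.6 and 69.1 CPM, and stood at 55.3 and 54.9 TPM. MAGEL2 had 8 and 6 reads, or 0.115 and 0.095 TPM. NDN was therefore 481-fold and 577-fold above MAGEL2 per length. MKRN3, a ubiquitin ligase gene known for restraining puberty, had 171 and 137 reads, or 4.52 and 3.87 TPM.

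The starts of NDN and MAGEL2 are shown because these neighbours differed in level and their starts differ in CG content. Whether the level and the CG content are linked was not tested. The 250 bases before the start hold 30 CG dinucleotides in NDN and 8 in MAGEL2. The NDN stretch is chr15:23687331-23687555 and the MAGEL2 stretch chr15:23647868-23648117, both on the minus strand and both ending before any annotated exon, with CG in capitals.
NDN: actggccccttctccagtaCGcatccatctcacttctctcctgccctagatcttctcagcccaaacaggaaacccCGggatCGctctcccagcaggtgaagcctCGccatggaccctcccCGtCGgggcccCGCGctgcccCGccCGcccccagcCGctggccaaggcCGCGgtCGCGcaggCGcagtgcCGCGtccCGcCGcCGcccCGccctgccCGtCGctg
MAGEL2: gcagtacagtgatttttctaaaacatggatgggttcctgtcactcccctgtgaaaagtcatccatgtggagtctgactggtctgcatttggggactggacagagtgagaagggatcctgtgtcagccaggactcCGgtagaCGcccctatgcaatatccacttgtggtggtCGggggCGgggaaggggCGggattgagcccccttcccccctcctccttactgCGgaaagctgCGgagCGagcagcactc

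SNRPN, which encodes a spliceosomal protein, and UBE3A, a ubiquitin ligase gene expressed maternally in neurons, gave different pictures in the gene table and the transcript table. SNRPN had 17 and 13 reads, or 0.704 and 0.586 CPM, but 40.7 and 42.4 TPM. Its reads lay below the number predicted from its TPM by a log2 ratio of -5.84 in replicate 1 and -6.14 in replicate 2. SNURF, a small protein read from the same RNA, had 0 reads and 0.294 and 1.31 TPM. Of the exonic length, 33.6% in SNRPN and 69.3% in SNURF is shared on the same strand with other genes. The partners are SNURF, SNHG14 and AC124312.1 for SNRPN, and SNRPN and AC124312.1 for SNURF. The share of reads that such overlap kept out of the gene table was not tested. SNHG14, the host of the small nucleolar RNAs of this region, was at 36.4 and 32.0 CPM.

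UBE3A had 2105 and 1966 reads, or 87.2 and 88.6 CPM, and 42.2 and 29.7 TPM. SNRPN relative to UBE3A was 0.966 in replicate 1 and 1.43 in replicate 2 by TPM, so their order changed with the library, and by CPM per kilobase the mean ratio was 0.0275. The start of SNRPN that carried 98.7% and 97.7% of its TPM lies in the imprinting control region of this domain and is shown for that reason. The stretch is chr15:24954737-24954926 on the plus strand, cut at the nearest annotated exon, and capitals mark CG.
SNRPN: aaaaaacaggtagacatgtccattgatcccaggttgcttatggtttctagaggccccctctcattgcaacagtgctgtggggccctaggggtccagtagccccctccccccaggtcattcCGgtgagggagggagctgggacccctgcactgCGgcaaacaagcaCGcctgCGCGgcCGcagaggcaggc

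**Figure D2:**
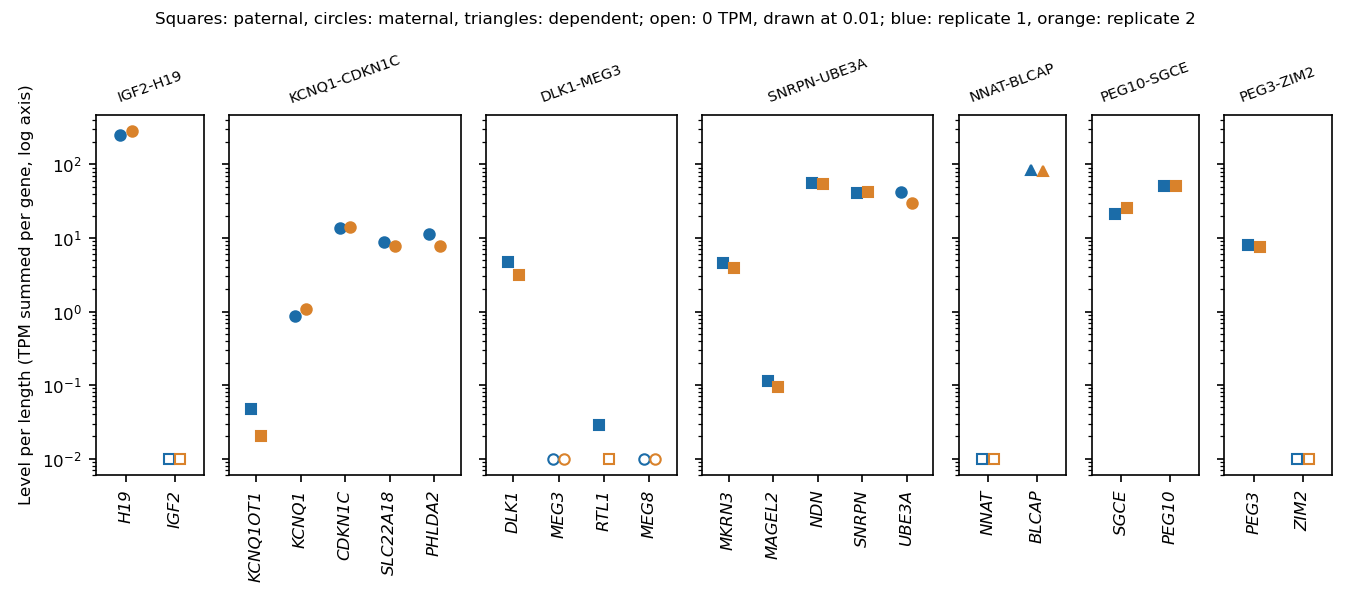
Levels in TPM (vertical axis, log scale) of the members of 7 imprinted clusters, with replicate 1 in blue and replicate 2 in orange, squares for paternal, circles for maternal and triangles for dependent genes, and open symbols for 0 TPM. SNURF, which shares its RNA with SNRPN, is not drawn. H19 stands at 255 and 284 beside IGF2 at 0, DLK1 at 4.67 and 3.10 beside MEG3 and MEG8 at 0, and BLCAP at 84.9 and 81.5 beside NNAT at 0.

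PEG10 and SGCE, paternally expressed neighbours on chromosome 7, were both present. PEG10, derived from a retrotransposon and needed for the placenta, had 3791 and 3639 reads and 50.4 and 50.9 TPM. SGCE, which encodes epsilon-sarcoglycan, stood at 21.0 and 25.7 TPM, and PEG10 exceeded it 2.40-fold and 1.98-fold in TPM but 19.8-fold and 17.4-fold by CPM per kilobase of merged exons. On chromosome 19, PEG3, a zinc finger protein gene, had 1188 and 1063 reads and 8.13 and 7.58 TPM. Its neighbour ZIM2 had 2 reads and 1 read and 0 TPM, and 41.2% of its exonic length is shared on the same strand with PEG3. What this overlap kept out of the ZIM2 count was not tested. The PEG3 to ZIM2 ratio per kilobase was 124 in replicate 1 (counting interval 51.1 to 680) and 111 in replicate 2 (58.9 to 1891).

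GRB10 and PLAGL1 were both detected. GRB10, an adaptor that dampens insulin receptor signalling, had 4730 and 4695 reads, or 59.8 and 65.1 TPM. PLAGL1, a zinc finger transcription factor gene, had 309 and 445 reads, or 7.85 and 11.8 TPM. PLAGL1 was the higher in replicate 2, beyond counting noise.

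Of the imprinted genes that lie inside larger genes, NNAT was without a read while its host was present. NAP1L5 was detected, while reads and TPM disagreed on its host. NNAT, a neuronal proteolipid gene, had 0 reads and 0 TPM in both libraries. BLCAP, the gene around it, had 3036 and 2726 reads, or 84.9 and 81.5 TPM. Per kilobase of merged exons (7869 bases in BLCAP and 1332 in NNAT), BLCAP was at least 171-fold and at least 154-fold higher than NNAT. NAP1L5, a nucleosome assembly protein gene inside HERC3, was detected at 7.26 and 7.56 TPM with 229 reads in each library. HERC3 had 1 read and 0 reads, but 1.32 and 1.36 TPM, which is past 1 TPM in both libraries. Whether HERC3 was expressed is thus not settled, and the cause of the disagreement was not tested. L3MBTL1, a reader of methylated histone lysines, had 130 and 89 reads, or 2.66 ± 0.0597 TPM (SD, n = 2).

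ZDBF2, a zinc finger gene of chromosome 2, had 862 and 841 reads and 4.83 and 4.93 TPM, and CMKLR2-AS, the antisense RNA upstream of it, was at 4.43 and 5.68 CPM. DIRAS3, a small GTPase gene often silenced in cancers, had 1 read and 2 reads. INPP5F, an inositol phosphatase gene, had 3825 and 3519 reads and 53.3 and 54.0 TPM. Of 11 pairs of neighbours compared, 6 had TPM above 0 for both genes, and 4 of these 6 were over 10-fold apart in mean TPM. By CPM per kilobase 5 were, but the pairs were not the same. CDKN1C against KCNQ1 dropped out, at a mean ratio of 9.71. PEG10 against SGCE entered at 18.6 and SNRPN against UBE3A at 0.0275, the latter on the few SNRPN reads described above.

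Several members have more than one start, of which only some are described as imprinted, so the TPM was split by annotated transcript start. Starts within 500 bases were joined. The depth behind a transcript is unknown, and these shares are the quantifier's estimates. MEST, an alpha/beta hydrolase-fold protein gene, had 5170 and 5261 reads and 121 and 132 TPM. The upstream cluster of MEST starts carried 96.1% of its TPM in replicate 1 and 96.6% in replicate 2, with transcript MEST-202 alone at 93.7% and 94.8%. The internal cluster, which includes the start described in the literature as paternally expressed, carried 3.45% and 3.34%. The upstream start was thus the main one in both libraries.

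Both MEST starts are shown because the transcript shares turn on them. The 250 bases before the start hold 9 CG dinucleotides at the upstream start and 16 at the internal one. Other RefSeq starts of MEST differ, with 20 at a second upstream start and 11 and 20 at the remaining internal ones, so no order in CG content holds over all starts. The upstream stretch is chr7:130485925-130486041, cut at the nearest annotated exon, and the internal one chr7:130491808-130492057, both on the plus strand with CG in capitals.
MEST upstream start: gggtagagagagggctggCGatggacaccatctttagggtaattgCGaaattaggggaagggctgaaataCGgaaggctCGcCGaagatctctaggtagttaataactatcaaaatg
MEST internal start: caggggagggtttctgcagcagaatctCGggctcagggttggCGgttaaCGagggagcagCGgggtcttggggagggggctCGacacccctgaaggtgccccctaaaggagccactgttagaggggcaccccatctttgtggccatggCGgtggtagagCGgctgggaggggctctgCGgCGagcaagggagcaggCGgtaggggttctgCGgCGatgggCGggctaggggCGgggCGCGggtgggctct

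In INPP5F the order was the reverse of that in MEST. The internal starts, which give the short isoform described as imprinted, carried 64.0% and 66.0% of its TPM, and the upstream starts held the rest. In PLAGL1, the internal cluster at the control region described as imprinted carried 45.2% and 49.2%. The upstream PLAGL1 cluster carried 15.4% and 29.9%, and a further downstream start 34.4% and 17.4%, so those shares were less steady between the libraries. In GRB10 a start downstream of the first promoter region led with 52.5% and 48.7%, and the first promoter region carried 29.3% and 36.2%.

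Single start clusters dominated in H19, with 99.8% and 100% of TPM, and in SGCE, with 99.0% and 98.0%. BLCAP also had a leading cluster, at 95.3% and 97.4%. PEG10 had 79.2% and 86.2% at its leading cluster. The leading clusters of ZDBF2 (59.2% and 79.9%), PEG3 (66.4% and 96.1%), L3MBTL1 (60.5% and 86.7%) and UBE3A (71.5% and 94.6%) moved by over 20 percentage points between the libraries. In IGF2R the start of the full-length receptor carried 37.4% and 38.1%, while the retained-intron transcript IGF2R-207 carried 48.1% and 40.0%.

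**Figure D3:**
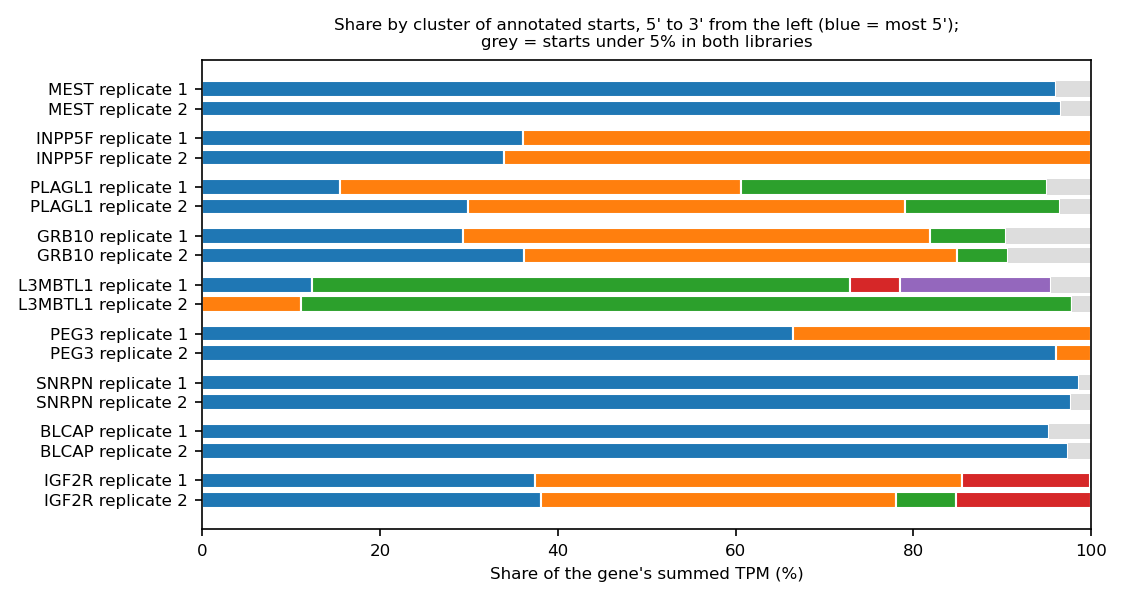
Share of each gene's TPM by cluster of annotated transcript starts (stacked bars, percent) in each library for 9 genes, ordered from the most upstream cluster at the left, with clusters under 5% in both libraries in grey. The upstream MEST cluster takes 96.1% and 96.6%, the internal INPP5F cluster 64.0% and 66.0%, and the upstream PLAGL1 cluster 15.4% and 29.9%.

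GNAS was the most abundant member. It encodes the stimulatory G protein alpha subunit, which couples hormone receptors to cyclic AMP, and its alternative first exons give products of different parental origin. GNAS had 32509 and 30000 reads, or 1347 and 1351 CPM, and 1119 and 1110 TPM. Transcripts that start at the first exon of Gs-alpha, which in most tissues is expressed from both chromosomes, carried 63.7% and 64.6% of this TPM. The maternally expressed NESP55 region carried 0.343% and 0.232%, and the paternally expressed XL-alpha-s start 0.0354% and 0.0286%. Starts in the A/B region, a paternally expressed noncoding first exon, carried 35.4% and 34.9%, and starts further downstream 0.527% and 0.285%. The Gs-alpha and A/B shares each moved by under 1 percentage point between the replicates, while NESP55 and the downstream starts were not separated beyond that spread.

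The A/B share came mostly from the noncoding transcript GNAS-247, which alone held 27.7% and 27.5% of GNAS TPM, or 310 and 306 TPM. This transcript is 897 bases long, and only 40 of its bases are not found in Gs-alpha transcripts, so its estimate rests on those bases and on its missing last exon. Without it the A/B region would hold 7.69% and 7.34%. Among protein-coding transcripts alone, Gs-alpha took 99.8% and 99.7%. Of the Gs-alpha coding transcripts that reach the last exon, the long form with the 45-base exon 3 held 52.6% and 54.3%. GNAS-AS1, the noncoding RNA that runs against the NESP55 region, had 25 and 27 reads and 0.863 and 0.721 TPM, and 43.1% of its exonic length overlaps GNAS on the opposite strand. GNAS exceeded it 1297-fold and 1540-fold in TPM, and 357-fold and 305-fold by CPM per kilobase.

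**Figure D4:**
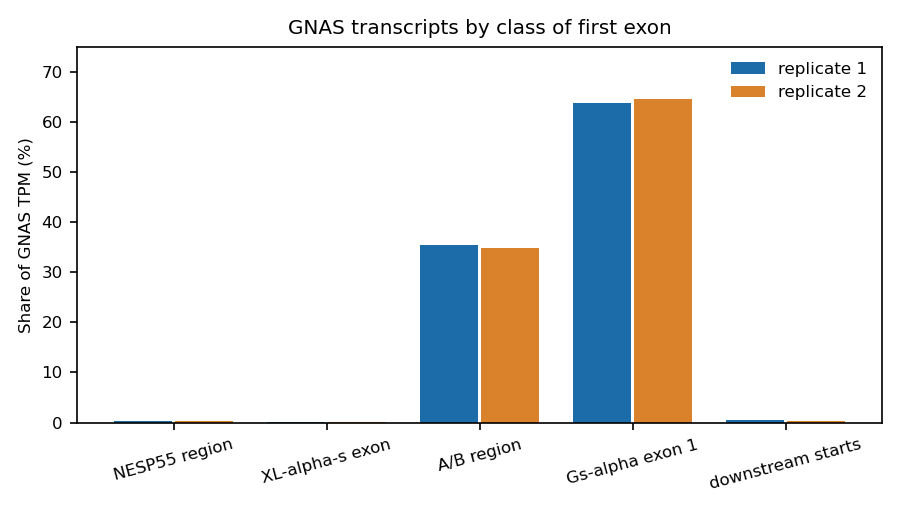
Share of GNAS TPM (bars, percent, linear axis from 0) by class of first exon in each library. Gs-alpha holds 63.7% and 64.6% and the A/B region 35.4% and 34.9%, while NESP55 and XL-alpha-s each stay below 1%.

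Of the 20 listed imprint regulators, which include the TET enzymes that oxidise methylated cytosine, 17 were detected. The background was 61.7% of protein-coding genes. The zinc finger proteins that recognise methylated control regions differed. ZFP57 had 0 reads in both libraries, whereas ZNF445 had 10.9 and 11.6 CPM. Their partner TRIM28, a corepressor, stood at 1309 and 1232 CPM, and SETDB1, the histone H3 lysine methylase recruited by it, at 94.0 and 93.7 CPM.

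DNMT1, which copies methylation at replication, was at 161 and 169 CPM, and its partner UHRF1 at 37.8 and 43.5 CPM. The enzymes of new methylation were also present, with DNMT3A at 103 and 92.8 CPM, DNMT3B at 124 and 98.4 CPM, and their cofactor DNMT3L at 73.2 and 51.0 CPM. TET1, which oxidises methylated cytosine, was at 166 CPM in each library. The insulator protein gene CTCF was at 141 and 133 CPM, and its testis paralogue CTCFL at 1.86 and 1.67 CPM. DPPA3, which protects methylation in the zygote, had 2.03 and 1.44 CPM. Of the maternal-effect genes, NLRP7 was at 122 and 100.1 CPM, while NLRP5 and KHDC3L had 1 read each in the libraries together.

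Other genes that lie in imprinted domains were detected in 19 of 44 cases, and 11 of the 44 had no read in either library. The list mixes coding and noncoding genes, for which the backgrounds were 61.7% of protein-coding and 6.06% of long noncoding genes, and 21.7% of all genes. The highest was CD81, a tetraspanin gene of chromosome 11, at 1297 and 1223 CPM. NLRP2 (321 and 309 CPM) and NAP1L4 (234 and 241 CPM) followed by reads. Per length their order was the reverse, with NAP1L4 at 137 and 147 TPM and NLRP2 at 124 and 121 TPM. In the domain of IGF2, both INS and IGF2-AS had no read. In that of UBE3A, ATP10A, a lipid transporter gene, was at 79.7 and 65.5 CPM, while NPAP1 and PWAR5 had no read.

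Replicate 2 was set against replicate 1 with an exact binomial test per gene in edgeR, with Benjamini-Hochberg adjustment over the 15299 genes tested. This compares 2 libraries with counting noise and says nothing about a condition. Past an adjusted p of 0.05 lay 13.1% of all genes tested, 6.78% higher and 6.35% lower in replicate 2. Of the 25 imprinted genes tested, 8 passed, 5 higher and 3 lower in replicate 2. The 5 higher genes were PLAGL1, SGCE, H19, MEST and GRB10. PLAGL1 had 309 reads in replicate 1 and 445 in replicate 2, a log2 difference of 0.65 (edgeR exact binomial test, adjusted p = 3.6e-08). H19 went from 158 to 187 CPM, by 0.25 (adjusted p = 1.7e-12 in the same exact test). SGCE differed by 0.25, MEST by 0.15 and GRB10 by 0.12 on the log2 scale.

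The 3 lower genes had few reads. KCNQ1OT1 fell by 1.02 on the log2 scale (edgeR exact binomial test, adjusted p = 0.0023), PHLDA2 by 0.63 (adjusted p = 0.022, same exact test) and DLK1 by 0.55 (adjusted p = 0.026, same exact test). The median log2 difference, with 1 CPM added to each value, was 0.013 over the 24 members whose mean reached 1 CPM and -0.0077 over all 13898 such genes. Of the 17 regulators tested, 6 passed, beside 13.1% of all genes, with 1 higher (UHRF1) and 5 lower in replicate 2. The lower ones were TRIM28, DNMT3A, DNMT3B, DNMT3L and NLRP7, with DNMT3L the furthest at a log2 difference of -0.51 (edgeR exact binomial test, adjusted p = 6.5e-19). Of the 20 other imprinted-domain genes tested, 5 passed, all lower in replicate 2, beside the 13.1% that passed and the 6.35% that were lower over all genes.

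**Figure D5:**
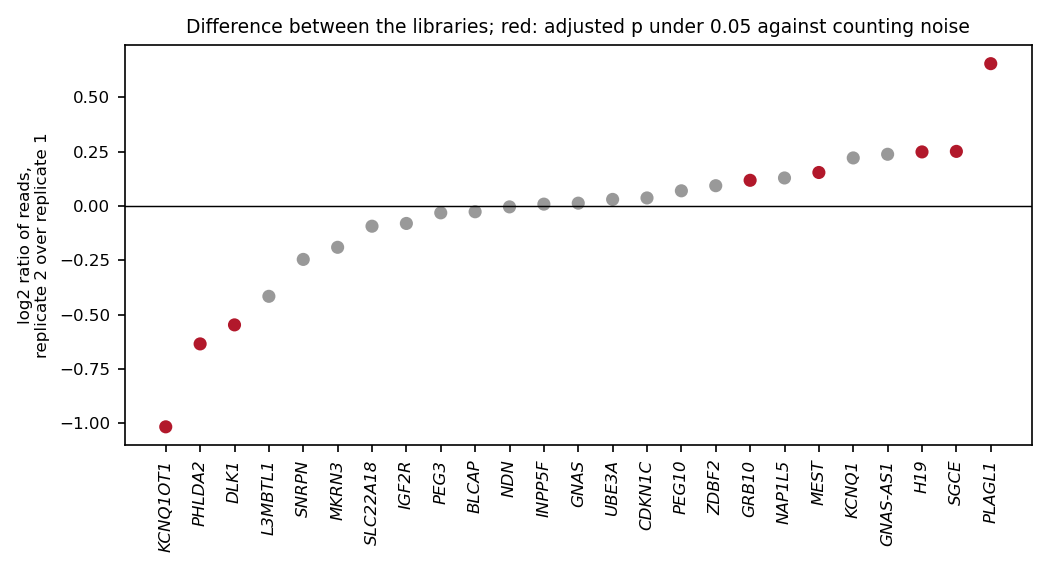
Log2 ratio of reads, replicate 2 over replicate 1 (vertical axis), for the 25 imprinted genes tested with edgeR, each point a gene, with the 8 past an adjusted p of 0.05 in red. PLAGL1 lies furthest to the higher side at 0.65 and KCNQ1OT1 furthest to the lower side at -1.02.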

How the data were processed

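Polyadenylated RNA of 2 replicate libraries of DDX53-transduced TCam-2 cells was sequenced after DNA removal with a strand-specific kit, per the labels' protocols. Trim Galore 0.6.10, STAR 2.7.11a, Salmon 1.10.2, DESeq2 and the build GRCh38 (hg38) are named in the submitters' processing notes without their roles. The counter and its annotation are not given in the sources used here.

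The authors deposited a gene table and a transcript table. The gene table carries the name CPM, yet its deposited signal was scaled by a single divisor in each library: every value above 0 (100%) was a whole multiple of 1.02 in replicate 1 and 1.12 in replicate 2, within a tolerance of 0.001. Whole reads were recovered by that division, and CPM was computed from them over all reads in genes. The deposited transcript table holds TPM, made by the authors with salmon. Transcripts were matched by identifier without version to GENCODE 29 on GRCh38 (201667 of 251955, carrying 94.8% of TPM in each library) and summed per gene.

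The 34 genes, the lists of 20 regulators and 44 other genes of imprinted domains (of 48 listed), and the markers were chosen with earlier results of these data known. All 34 members are named, and transcripts are named from the 3 with the highest mean share. Detected means at least 1 CPM in both libraries. Libraries were compared with edgeR 4.0.16 (binomTest, TMM effective sizes, filterByExpr, Benjamini-Hochberg over all genes), a code tested on simulated data. DESeq2 1.42.0 gave alternative size factors. Intervals are 95% Wilson intervals and cover counting error only. Promoter sequences are from RefSeq (GRCh38.p14), which held 20 of the 34 members, as the 250 bases before each start. No column of per-sample values was left out.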

Additional observations from a re-analysis of the deposited data

How the results depend on the processing

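The count of imprinted genes detected, 24, was 26 at 0.1 CPM, 18 at 5 CPM and 22 by TPM, and 24 to 24 with each replicate left out in turn. The 2008 genes that differed between the libraries became 1989 with DESeq2 size factors, 2019 with the deposited factors and 1716 without a filter, and 8 imprinted genes passed under each. The Gs-alpha share of GNAS was 64.1% as a mean, 63.7% to 64.6% with each replicate left out, and 99.8% among protein-coding transcripts only, an alternative that by construction drops GNAS-247. The ratio of SNRPN to UBE3A turned, from a mean of 1.20 to 0.966 without replicate 2 (1.43 without replicate 1) and to 0.0275 by CPM per kilobase, and the cause was not tested. With TPM recomputed from reads and merged exon lengths, 19 of 22 levels moved by more than the SD between replicates, 7 of them over 1.5-fold higher and 5 over 1.5-fold lower. SNRPN moved from 41.6 to 0.726, SGCE from 23.4 to 4.99, GNAS from 1115 to 389 and NAP1L5 from 7.41 to 19.9 TPM, so orders of genes that are several-fold apart can also change. No paired analysis was possible because 1 group was given, and no replicate could be left out of a comparison of 2 libraries. Below 0.124 and 0.135 CPM, depth sets the limit.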

Other observations

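ZFP57, the zinc finger protein that binds methylated imprinting control regions, recognises the letters TGCCGC, so these were counted on either strand in the 250 bases before each RefSeq start. They were present at 16 of the 49 starts of the 20 imprinted genes in the table (32.7%) and in 12.7% of all 35116 promoters. Several of the 49 starts belong to 1 gene and overlap, and the 16 came from 12 genes. The start at chr15:24954987 is listed under both SNRPN and SNURF, so the same stretch counts for both. Starts of MEG3 that lie close together add further counts, so the separate sites are fewer than 16. The starts listed for NDN and MEG3 held the letters, as did 2 of the 4 SNRPN starts, the printed one among them. Those listed for MAGEL2 and H19 and the printed MEST starts did not. The H19 start listed, chr11:2001266, lies outside the cluster at chr11:1996191-1997875 that carried 99.8% and 100% of H19 TPM. The letters were not counted before the starts of that cluster. The median number of CG dinucleotides was 15 at the imprinted starts and 11 over all promoters, and the part of CG content in the difference was not tested. The match describes letters only and is no evidence of binding, and ZFP57 itself had 0 reads in both libraries.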
